A study of Homo sapiens with 4 samples.

Results

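The genes described here are 10 members of the BCL2 family, which sets the threshold for apoptosis: BCL2, BCL2L1, MCL1, BAX, BAK1, BCL2L11, BBC3, PMAIP1, BMF and BID. They were taken by name, and each has 1 feature among the 23786 Entrez-numbered features measured, so all 10 of 10 were found. The cells were U87, an established human glioblastoma line grown in serum, and the drug was crizotinib, which inhibits ROS1, ALK and MET. Each of the 4 conditions has 1 array: 2 µM crizotinib for 24 hours, its 24-hour vehicle culture, 1 µM crizotinib for 21 days, and a 21-day culture without drug. The labels name the last pair crizotinib-resistant and crizotinib-sensitive; these were read as the drug culture and its control, and the sign of every 21-day difference rests on that reading. Nothing in the labels says that the resistant culture is a clone, and the labels state that RNA of all cultures was extracted together. No condition has a second array, so the spread between replicate cultures is unknown for every difference below.

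The mitochondrial pathway of apoptosis is decided by 3 kinds of BCL2 protein. Anti-apoptotic members (BCL2, Bcl-xL from BCL2L1, and MCL1) hold the effectors BAX and BAK, which otherwise permeabilise the outer mitochondrial membrane and release cytochrome c. BH3-only proteins (BIM from BCL2L11, PUMA from BBC3, NOXA from PMAIP1, BMF and BID) are induced or modified by stress and bind the anti-apoptotic members or the effectors. In cells that depend on a receptor kinase, BIM and BMF are well known as proteins that carry the death signal when the kinase is inhibited, and glioma cells commonly rely on Bcl-xL and MCL1. The array reads messenger RNA alone, with all transcripts of a gene in 1 value, so the long and short splice forms of BCL2L1 and MCL1 are not separated. Much of the control of this family acts on the proteins, which were not measured.

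After 24 hours of crizotinib MCL1 had the largest difference of the 10 genes, 1.90-fold lower, and BCL2L1, BAK1, PMAIP1, BAX and BID were lower by less. BCL2L11 was 1.38-fold higher. After 21 days PMAIP1 was 1.65-fold and BAK1 1.52-fold higher, BMF, BID, BAX and BCL2L1 were higher by less, and BCL2L11 and BCL2 were lower, by 1.55-fold and 1.41-fold. None of the 10 differed by 2-fold in either comparison. In bulk RNA, a difference in every cell and a difference in the mix of cells cannot be told apart.

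A gene was called when it differed by at least 2-fold on the linear scale and its higher array stood at or above 4.96, the median of all log2 values. With 1 array per condition this is a rule of size and not a test. By it 0 of 10 members were called after 24 hours, where, of the 12468 features past the level filter, 2.88% were called higher and 2.13% lower. Likewise 0 of 10 were called after 21 days, where the shares were 3.97% higher and 4.08% lower of 12450 features. At 1.5-fold, MCL1 was the 1 member called after 24 hours, against 10.2% of features higher and 8.75% lower. PMAIP1 and BAK1 were the 2 members called after 21 days, both higher, against 10.7% of features higher and 11.2% lower. Past the level filter were 8 members in each comparison, and both 1.5-fold counts are near what these shares give for 8 genes. BCL2 and BCL2L11 were below the filter on all 4 arrays, where differences are compressed toward 0, so neither could be called. BCL2L11 was 1.55-fold lower at 21 days and is left out of that count by the filter alone.

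**Figure D1:**
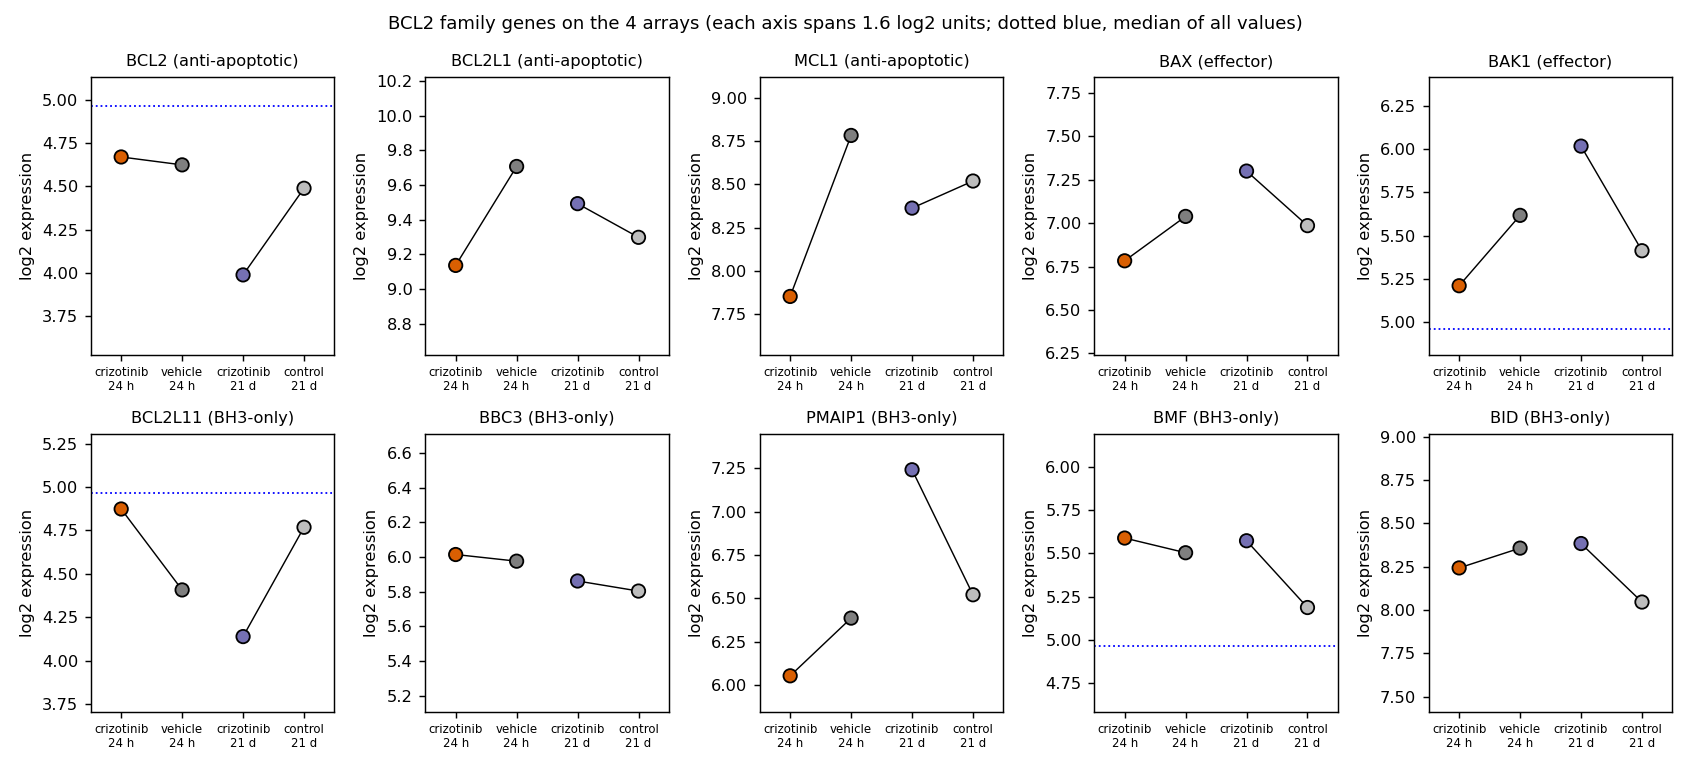
Log2 expression (vertical axes) of the 10 genes on the 4 arrays (horizontal axes), with 1 point per array, a line joining each crizotinib array to its own control and a dotted line at the median of all values, 4.96. The 24-hour crizotinib array lay below both arrays without drug for MCL1, BCL2L1, BAX, BAK1 and PMAIP1, and the 21-day crizotinib array lay above both for BAX, BAK1, PMAIP1, BMF and BID.

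Among the anti-apoptotic members, MCL1 (Entrez gene 4170), a short-lived protein that neutralises BIM, NOXA and BAK, stood at a log2 level of 7.85 after 24 hours of crizotinib, against 8.78 in vehicle. In the 21-day pair it was 8.36 in crizotinib and 8.52 in the control. The 24-hour crizotinib array was thus the lowest of the 4, and the 21-day crizotinib array was also below both arrays without drug. The differences in log2 expression were -0.93 at 24 hours and -0.16 at 21 days. Of all features past the filter at 24 hours, 2.75% had a lower difference than MCL1, whereas at 21 days 36.9% did. MCL1 was the 1 member that was lower in both pairs.

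BCL2L1 (Entrez gene 598), the source of Bcl-xL, had log2 levels of 9.14 in 24-hour crizotinib and 9.71 in vehicle, then 9.49 in 21-day crizotinib and 9.30 in its control. It was lower by 0.57 on the log2 scale (1.48-fold) after 24 hours and higher by 0.19 after 21 days. The arrays without drug were 0.41 apart, with the 21-day control below vehicle, so the 21-day crizotinib array lay between them. With the arrays without drug exchanged, the 24-hour difference was -0.16, and the 21-day difference was -0.21, which turns its direction.

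BCL2 (Entrez gene 596), the founding member of the family, was below the level filter on every array. Its log2 levels were 4.67 in 24-hour crizotinib and 4.62 in vehicle, a difference of 0.05. They were 3.99 in 21-day crizotinib and 4.49 in the control, a difference of -0.50. The 21-day crizotinib array was the lowest of the 4, and the other 3 arrays lay within 0.18 of each other.

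Both effectors were lower after 24 hours and higher after 21 days. BAK1 (Entrez gene 578), whose protein resides in the outer mitochondrial membrane and is restrained by MCL1 and Bcl-xL, had log2 levels of 5.21 in 24-hour crizotinib and 5.62 in vehicle, and of 6.02 in 21-day crizotinib and 5.41 in its control. The differences were -0.41 and 0.60. The crizotinib arrays were thus the lowest and the highest of the 4, with both arrays without drug between them.

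BAX (Entrez gene 581), a p53 target whose protein moves from the cytosol to mitochondria when activated, had the same order. Its log2 levels were 6.78 in 24-hour crizotinib and 7.04 in vehicle, and 7.30 in 21-day crizotinib and 6.99 in the control. The differences, -0.26 and 0.31, were both larger than the 0.05 that separated the arrays without drug. At 21 days BAX exceeded 77.6% of features past the filter in its difference, and BAK1 exceeded 89.8%.

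The BH3-only genes differed in direction among themselves. PMAIP1 (Entrez gene 5366), whose protein NOXA binds MCL1 and is induced through p53 and the integrated stress response, had log2 levels of 6.05 in 24-hour crizotinib and 6.39 in vehicle. They were 7.24 in 21-day crizotinib and 6.52 in its control. The differences were -0.33 and 0.72, and the 21-day value lay above 92.4% of features past the filter. The 21-day crizotinib array was the highest and the 24-hour crizotinib array the lowest, and the arrays without drug differed by 0.13. Its range over the 4 arrays, 1.19, was the widest of the 10 members.

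BCL2L11 (Entrez gene 10018), whose protein BIM is degraded after ERK phosphorylation and whose gene is a FOXO target, had its crizotinib arrays at the opposite ends from PMAIP1, with the 24-hour array highest and the 21-day array lowest. Its log2 levels were 4.87 in 24-hour crizotinib and 4.41 in vehicle, and 4.14 in 21-day crizotinib and 4.77 in its control. The differences were 0.47 and -0.63. The arrays without drug were 0.36 apart, with the 21-day control higher, so against the other array without drug the 24-hour difference was 0.11 and the 21-day difference -0.27. Both kept their direction, and all 4 levels were below the filter.

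BMF (Entrez gene 90427), whose protein is held by dynein light chains until it is released, had log2 levels of 5.59 in 24-hour crizotinib, 5.50 in vehicle, 5.57 in 21-day crizotinib and 5.19 in the 21-day control. The 21-day control was the low array and the other 3 lay close together. The differences were 0.08 at 24 hours and 0.38 at 21 days, and the arrays without drug differed by -0.32.

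BID (Entrez gene 637), which caspase 8 cleaves to link death receptors to mitochondria, had log2 levels of 8.24 in 24-hour crizotinib, 8.36 in vehicle, 8.38 in 21-day crizotinib and 8.05 in the 21-day control. As with BMF the low array was the 21-day control. The differences were -0.11 and 0.34, and the 21-day difference was 0.03 against the vehicle array.

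BBC3 (Entrez gene 27113), the source of the p53-induced killer PUMA, varied least. Its log2 levels were 6.01 in 24-hour crizotinib, 5.98 in vehicle, 5.86 in 21-day crizotinib and 5.80 in the control of that pair. The differences of 0.04 and 0.06 were smaller than the -0.17 between the 21-day control and vehicle. The range over the 4 arrays was 0.21.

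**Figure D2:**
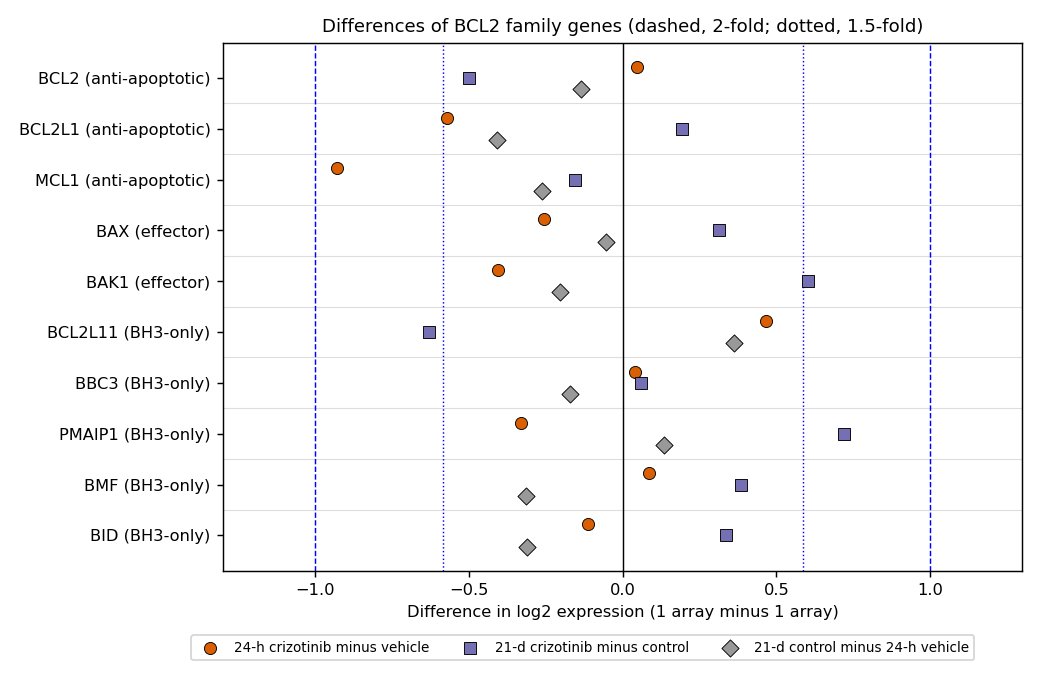
Differences in log2 expression (horizontal axis, crizotinib array minus its own control) of the 10 genes (rows) at 24 hours (circles) and 21 days (squares), with the difference between the arrays without drug (diamonds). No point reaches the 2-fold lines, MCL1 at 24 hours comes nearest at -0.93, and BAK1, PMAIP1 and BCL2L11 lie on opposite sides of 0 at the 2 times.

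By role, the 3 anti-apoptotic genes had differences from -0.93 to 0.05 at 24 hours, with a median of -0.57, and from -0.50 to 0.19 at 21 days, with a median of -0.16. The 5 BH3-only genes ranged from -0.33 to 0.47 at 24 hours (median 0.04) and from -0.63 to 0.72 at 21 days (median 0.34). The median over all 10 members was -0.18 at 24 hours, with 6 members below and 4 above 0, beside a median of 0.00 over the features past the filter, of which 49.9% were below 0. At 21 days the median was 0.25, with 7 members above and 3 below 0, beside a median of -0.01 over all features past the filter, of which 48.6% were above 0. The typical feature past the filter differed by 0.28 in either direction at 24 hours, by 0.29 at 21 days and by 0.22 between the arrays without drug.

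**Figure D3:**
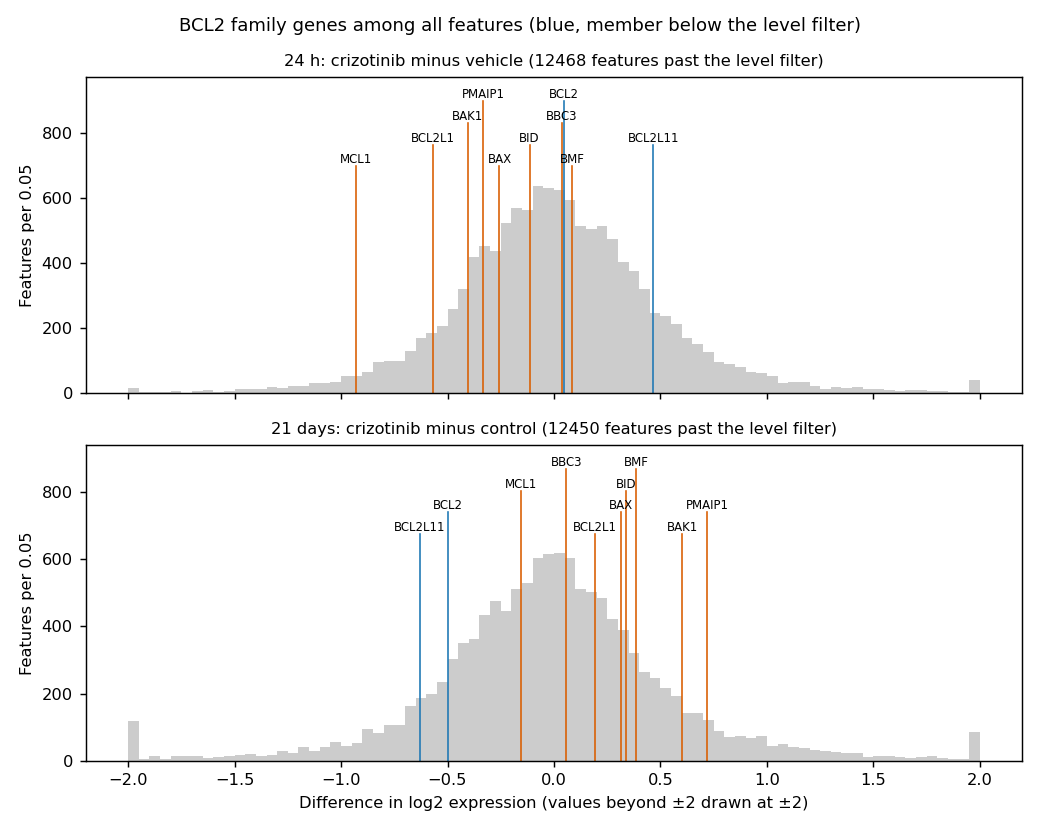
Histograms of the difference in log2 expression (horizontal axes, crizotinib array minus its own control) over all features past the level filter, as the number of features per 0.05 (vertical axes), with a line for each of the 10 genes and those below the filter in blue. MCL1 at 24 hours, with 2.75% of features below it, and PMAIP1 at 21 days, with 92.4% below it, lie farthest out among the members past the filter.

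The direction at 24 hours and the direction at 21 days differed for 7 of the 10 genes, 5 of them past the level filter. Of the 11873 features past the filter in both comparisons, 38.1% had opposite directions, and no test of the members against that share was made. BCL2L1, BAX, BAK1, PMAIP1 and BID were lower at 24 hours and higher at 21 days, and BCL2 and BCL2L11 the reverse. BBC3 and BMF were higher in both. Dose, time and culture all differ between the pairs, and with 1 array each the difference between them was not tested. Of the 10 genes, 8 were lower in the 21-day control, set against vehicle, with a median of -0.19. Of all 12397 features past the filter there, 46.4% were lower, with a median of 0.03. For 6 members the 24-hour difference was larger in size than the difference between these untreated arrays, and for 7 the 21-day difference was. These shares were not computed over all features, whose typical size was also larger in the drug pairs (0.28 and 0.29 against 0.22).

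Exchanging the arrays without drug as controls shifts each gene by the size of its own difference between those arrays. The shift has the same size in both comparisons and opposite directions, as for BCL2L1, from -0.57 to -0.16 at 24 hours and from 0.19 to -0.21 at 21 days. The same 5 of the 10 members therefore shifted by more than 0.22 in each. As 0.22 is the median size of that difference over all features past the filter, this count is near what any list of 10 genes would give. Set against the other array without drug, MCL1 was at -0.67 after 24 hours and -0.42 after 21 days, PMAIP1 at -0.47 and 0.85, BAK1 at -0.20 and 0.40, and BAX at -0.20 and 0.26, each with its direction kept. BID turned to 0.20 at 24 hours, and BBC3 turned to -0.11 and BCL2L1 to -0.21 at 21 days. The median of the 10 members at 21 days turned to -0.044 against the vehicle array, and at 24 hours it was -0.03 against the 21-day control.

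**Figure D4:**
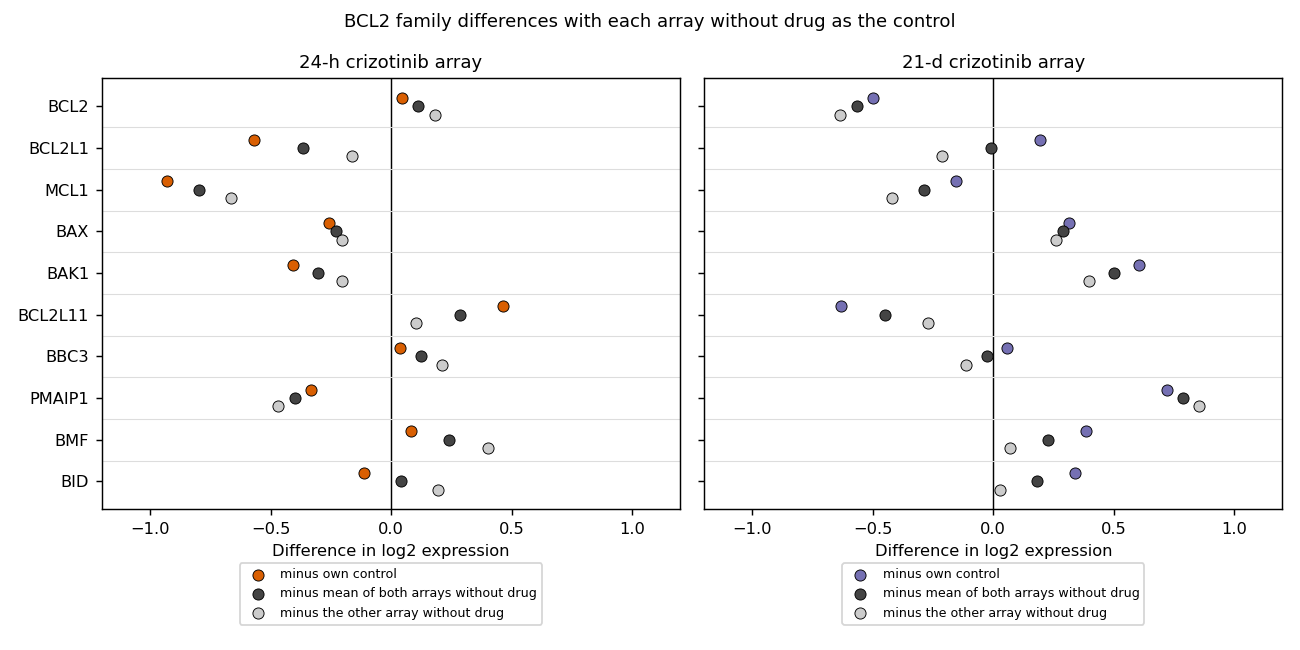
Differences in log2 expression (horizontal axes) of the 24-hour crizotinib array (left) and the 21-day crizotinib array (right) for the 10 genes (rows), against the own control, the mean of both arrays without drug, and the other array without drug. MCL1 stays below 0 and PMAIP1 stays on its side of 0 in each panel, while BID in the left panel and BCL2L1 and BBC3 in the right panel cross 0.

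A limma model with terms for crizotinib and for the pair, which leaves 1 residual degree of freedom, asks which genes differed alike at both times. It tested 11891 features and called 0% of them higher and 0% lower at an adjusted p of 0.05, while 1737 had an unadjusted p under 0.05. Of the 8 members tested, 0 passed, and 0 had an unadjusted p under 0.05. The smallest was that of MCL1, with an estimate of -0.54 (SE 0.26, adjusted p = 0.413 in limma, 0.402 to 0.617 over its settings). BMF followed with 0.23 (SE 0.20, adjusted p = 0.650, limma), and the remaining 6 tested had adjusted p-values up to 0.973 in limma. BCL2 and BCL2L11, which enter the fit only without the level filter, had estimates of -0.23 and -0.08 there (adjusted p = 0.791 and 0.967, limma). With the pair term in the fit, the 1 residual degree of freedom of a gene is the gap between its crizotinib differences in the pairs. limma draws the resulting variance toward the typical one over the tested features. Dose, time and culture enter that gap along with technical spread, so it does not measure the spread between replicate cultures. Opposite directions in the pairs, as for BAK1 and PMAIP1, bring the estimate toward 0 and raise its SE. A p above the threshold therefore does not show that a gene stayed the same.

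Promoter sequence from RefSeq (GRCh38.p14) was set beside these values for factors with known links to the family. The 250 bases before a transcript start were searched on both strands for GTAAACA (FOXO), CACGTG (the E-box bound by MYC with MAX) and TGACGT (the core of the cyclic AMP and ATF response element). Windows were found for 9 of the 10 members (15 windows, since some genes have several starts), and MCL1 was not among them. GTAAACA occurred in 1 of the 15 windows, that of BCL2L11, and in 2.98% of all 35116 windows. CACGTG occurred in 4 of the 15 windows and in 6.34% of all windows. Per gene, it occurred in 3 of 9 members, BAX, BBC3 and BID, and in 7.73% of 27305 genes with a window. The matches in BID are 1 site shared by overlapping windows. BID has 5 windows, and a gene with more windows has more room for a match. TGACGT occurred in 1 of the 15 windows, that of PMAIP1, and in 7.10% of all windows. Per gene, GTAAACA and TGACGT each occurred in 1 of 9 members, and in 3.66% and 8.62% of the genes with a window. The windows of BCL2L11 (chr2:111120664-111120913, plus strand), PMAIP1 (chr18:59899746-59899995, plus strand) and BAX (chr19:48954625-48954874, plus strand) are shown 5′ to 3′ because each holds another of the 3 motifs, given in capitals.
BCL2L11: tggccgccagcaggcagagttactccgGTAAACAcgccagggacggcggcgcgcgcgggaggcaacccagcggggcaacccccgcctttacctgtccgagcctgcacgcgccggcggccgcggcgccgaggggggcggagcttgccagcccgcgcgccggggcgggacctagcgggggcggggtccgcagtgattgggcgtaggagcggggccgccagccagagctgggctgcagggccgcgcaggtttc
PMAIP1: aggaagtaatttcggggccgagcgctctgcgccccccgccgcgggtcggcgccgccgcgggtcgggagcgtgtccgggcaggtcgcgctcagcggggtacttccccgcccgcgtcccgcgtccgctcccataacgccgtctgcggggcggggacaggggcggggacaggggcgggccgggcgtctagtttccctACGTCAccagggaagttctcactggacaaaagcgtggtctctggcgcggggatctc
BAX: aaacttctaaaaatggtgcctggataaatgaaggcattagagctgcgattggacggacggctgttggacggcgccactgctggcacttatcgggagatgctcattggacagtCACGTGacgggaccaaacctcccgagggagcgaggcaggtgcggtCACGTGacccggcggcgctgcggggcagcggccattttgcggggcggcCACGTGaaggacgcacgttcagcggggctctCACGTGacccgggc

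In BCL2L11 the match begins 223 bases before the start. In PMAIP1 the match, on the minus strand, begins 56 bases before it. BAX holds 4 matches, which begin between 138 and 14 bases before it, and no matches of different motifs overlap in these windows. A match is a description of the letters and not evidence that a factor binds. Among the factors, FOXO4 was higher in both pairs, by 0.52 and 0.97 on the log2 scale. Its arrays without drug differed by -0.49, and against the other of them it was at 1.01 and 0.48. Of the other listed FOXO genes, FOXO3 was at 0.24 and 0.10, less than the typical feature. FOXO1, below the level filter on all arrays, was at 0.36 and 0.20. MYC had levels of 6.66 in 24-hour crizotinib, 8.13 in vehicle, 7.56 in 21-day crizotinib and 8.21 in its control, and was lower in both pairs. ATF4, a factor of the ATF response element, differed by -0.25 and 0.29, about as much as the typical feature. DDIT3, the stress factor CHOP, had levels of 4.64 in 24-hour crizotinib, 4.28 in vehicle, 5.42 in 21-day crizotinib and 4.19 in its control, with the 21-day crizotinib array the highest. JUN, the AP-1 subunit, was at 8.72 in 24-hour crizotinib, 9.78 in vehicle, 10.50 in 21-day crizotinib and 9.80 in its control, lower at 24 hours and higher at 21 days. No relation between these factors and the members was tested.

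For the lists described from here on, the shares over all features past the level filter were 2.88% called higher and 2.13% lower at 24 hours. At 21 days they were 3.97% and 4.08%. The lists were chosen with earlier results of these data known. Of the 13 other BCL2 family genes, 0 were at least 2-fold different after 24 hours and 1 after 21 days, with medians of -0.13 and 0.03. That gene was BNIP3, a mitophagy receptor with a BH3-like region, at 9.93 in 21-day crizotinib and 8.39 in its control, a difference of 1.53. Its relative BNIP3L had a difference of 0.98 and the BH3-only gene HRK one of 0.61. The 21-day control was the lowest array for all 3, and against vehicle BNIP3 was at 0.37, BNIP3L at 0.29 and HRK at 0.33. BCL2L12, an atypical member, was lower in both pairs, at -0.36 and -0.54, but at 0.04 in the 21-day crizotinib array against vehicle.

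Downstream of the family, genes of mitochondrial release and the apoptosome had 0 of 10 members at least 2-fold different in either comparison, with medians of -0.01 at 24 hours and -0.14 at 21 days. DIABLO, which relieves caspases from their inhibitors, had the lowest 24-hour difference of that list at -0.64. Caspases and their nuclease had 7 measured members, with 0 called after 24 hours and 1 lower after 21 days, and medians of -0.11 and -0.51. The apical caspase of the death receptors, CASP8, which cleaves BID, was at 6.41 in 21-day crizotinib and 7.14 in its control, a difference of -0.73, while the executioner CASP6 was at -1.17 and CASP2 at -0.98. The 2 members above 0 at 21 days were CASP4, an inflammatory caspase, at 0.49, and CASP10, below the level filter, at 0.33. Of 5 measured inhibitor of apoptosis genes 1 was called lower in each comparison, BIRC5 (survivin, also a mitotic protein), at -1.22 and -2.46. BIRC2, a ubiquitin ligase of the TNF receptor complex, was at -0.86 and 0.28, lower at 24 hours and higher at 21 days.

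Death receptor genes had a median of -0.07 at 24 hours, with 0 of 12 measured called, and 0.28 at 21 days, with 1 called and 10 above 0. Of all features past the level filter, 48.6% were above 0 at 21 days. The 10 include FASLG (0.04), TNF (0.11) and TNFSF10 (0.07), which were below the filter on all arrays and differed by less than the typical 0.29. The called gene was TNFRSF10C, a decoy receptor for TRAIL. It was at 8.44 in 24-hour crizotinib and 7.45 in vehicle, a difference of 0.99 that lies just under 2-fold and comes to 1.00, just past it, when arrays are centred on their medians. Against the 21-day control that difference was 3.52. It was at 6.86 in 21-day crizotinib and 4.92 in its control, which is just below the level filter, a difference of 1.93. Against vehicle the 21-day crizotinib array was at -0.59. TNFRSF10D, another decoy, had a 21-day difference of 0.99, and CFLAR, the caspase 8 inhibitor c-FLIP, one of 0.75. Among genes that regulate MCL1, BIM or BMF after translation, 0 of 9 measured were called at 24 hours and 1 at 21 days, with medians of 0.25 and 0.09. The called gene was USP13, a deubiquitinase reported to stabilise MCL1, at 6.83 in 21-day crizotinib and 7.96 in its control. FBXW7 and BTRC, ubiquitin ligase subunits that can mark MCL1 for degradation, were higher in both pairs, FBXW7 at 0.40 and 0.51 and BTRC at 0.47 and 0.44. Of the same list, USP9X was at 0.45 and -0.04 and HUWE1 at 0.25 and -0.05. Above 0 were 6 of the 9 at 24 hours and 5 at 21 days, and any effect on MCL1 was not tested. Of 12 measured transcription factors with known links to the family, 3 were called lower at 24 hours (MYC, E2F1 and JUN). Of all features past the level filter, 2.13% were called lower there, and this list was chosen with earlier results of these data known. At 21 days DDIT3 was called higher and E2F1 lower, beside 3.97% and 4.08% of all features past the filter. DDIT3 passed the level filter only through its 21-day crizotinib array, at 5.42 against 4.19 in the control. The medians of the list were -0.09 and 0.17. In the limma fit over both pairs 0 of the 55 other listed genes tested passed. An unadjusted p under 0.05 was found for 7 of the 55, beside 1737 of all 11891 features tested, which is no larger a share.

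**Figure D5:**
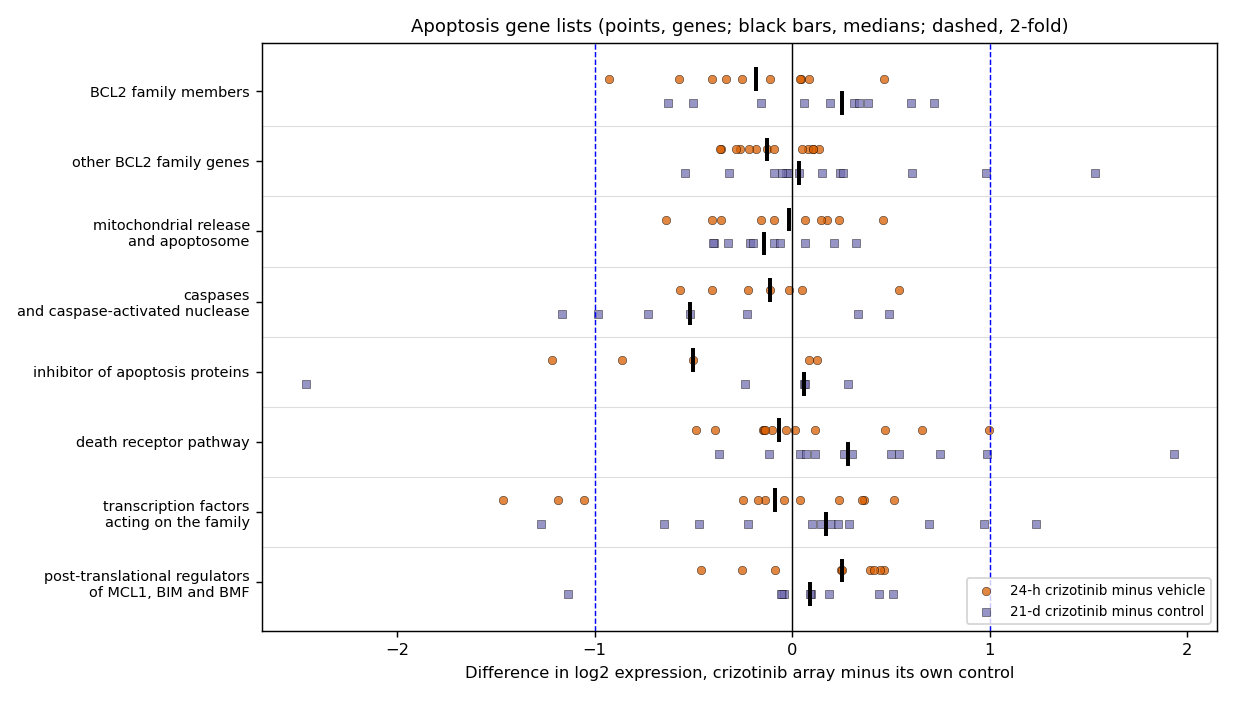
Differences in log2 expression (horizontal axis, crizotinib array minus its own control) of the genes in 8 lists (rows), with 1 point per measured gene, circles for 24 hours, squares for 21 days and a black bar at each median. The 10 members stay within the 2-fold lines in both comparisons, and BNIP3 of the other family genes, BIRC5, TNFRSF10C and 4 transcription factors (MYC, E2F1, JUN and DDIT3) are among the genes that reach past them.

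The labelled cell type was checked against marker genes. VIM and CD44, mesenchymal markers that U87 expresses, had log2 levels of at least 10.66 on all arrays, while 4 of 7 glial and glioblastoma markers, GFAP, S100B, OLIG2 and SOX2, were below the level filter on all 4. All 4 measured leukocyte markers were below it on all arrays, with a summed log2 level between 10.85 and 12.21, and so were 3 of 4 endothelial markers (17.28 to 17.98) and 3 of 5 epithelial markers (22.03 to 23.14), with KDR, KRT8 and EPCAM the exceptions. The summed level of the glial list was 42.5 in 24-hour crizotinib and 45.3 in vehicle, and 44.0 in 21-day crizotinib and 43.6 in its control, and its part in the members' differences was not tested. The arrays had medians between 4.92 and 4.98. Centring the arrays on these medians shifted the members' differences by 0.05 at most, to 2 decimals.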

How the data were processed

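Total RNA of 4 U87 cultures, 1 per condition, was labelled with biotin and hybridised to Affymetrix whole-transcript arrays, per the labels' protocols. The authors deposited log2 expression values, 1 per Entrez gene. RMA, affy 1.36.1 and R 2.15.1 are named in the submitters' processing notes, and the genome annotation behind the features is not given in the sources used here. RMA equalises the distributions of probe intensities between arrays and compresses low values. The deposited gene values were not fully equal in distribution, with array medians between 4.92 and 4.98. Symbols came from the platform's gene table, which named 22458 of 23786 features. With no scanner files, no feature can be called absent.

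Each crizotinib array was set against its own control as a difference of log2 values. The size rule was 2-fold, with a level filter of 4.96 (the median over all features and arrays) on the higher array. Python 3.11.15 with pandas 2.3.3 computed these, and limma 3.58.1 in R 4.3.3 (lmFit, eBayes, Benjamini-Hochberg over all features whose mean passed 4.96) fitted both pairs and was tested on simulated data. The alternatives changed the fold, the filter, the scaling, the control array and the fit. The members, the 7 other lists and the promoter motifs were chosen with earlier results of these data known. Named genes are the members and, of each list, those at least 1.5-fold different past the filter or at either end; genes resembling a member at least 2-fold changed were to be named, and 0 members were. Of 74 other listed genes, 68 were measured and 6 were not analysed here.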

Additional observations from a re-analysis of the deposited data

Results flagged for a closer look

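Of the 39 named genes, 15 differed from their control in opposite directions in the 2 pairs, each with 1 array per condition, so that the difference between the pairs was not tested. Over all features past the level filter in both comparisons the share was 38.1%. The values are the 21-day difference minus the 24-hour difference in log2 expression. Among the members they were 1.05 for PMAIP1, 1.01 for BAK1, 0.76 for BCL2L1, 0.57 for BAX, 0.45 for BID, -0.54 for BCL2 and -1.10 for BCL2L11. Among the other listed genes they were 1.82 for BNIP3, 1.75 for JUN, 1.14 for BIRC2, 1.13 for TNFRSF10D, 0.88 for CFLAR, 0.70 for HRK, -0.19 for BIK and -0.37 for BIRC6. With the arrays without drug exchanged as controls, 9 of the 15 still had opposite directions and 6 did not: BCL2L1, BID, BIK, HRK, BNIP3 and CFLAR. The 24-hour difference was then 0.88 for BNIP3, 0.18 for HRK and 0.20 for CFLAR. For BNIP3 the arrays without drug differed by -1.16, and for BCL2L1 by -0.41. BCL2, BCL2L11 and BIK were below the level filter.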

How the results depend on the processing

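The count of members at least 2-fold different was 0 in both comparisons without the level filter, with the filter at the 60th percentile, after centring or quantile normalization and with either other control. At 1.5-fold it was 1 after 24 hours and 2 after 21 days. The median 21-day difference of the members, 0.25, was reversed to -0.044 with the 24-hour vehicle as control. The 21-day difference of TNFRSF10C, 1.93, was reversed to -0.59 there. For TNFRSF10C the arrays without drug differed by -2.53, the amount by which exchanging them shifts its value. The cause of the difference between the arrays without drug was not tested. Quantile normalization turned 1 of the 24-hour member differences, that of BBC3. Centring brought TNFRSF10C at 24 hours to 1.00, just past 2-fold. The 21-day control as control turned BID, and vehicle as control turned BBC3 and BCL2L1, as did the mean of the arrays without drug in each case. The limma fit over both pairs called 0 features and 0 members in each of its settings, with adjusted p-values of the members between 0.402 and 0.989, and unadjusted p under 0.05 for 1094 to 2432 features. Leaving out a pair leaves a single pair with no residual degree of freedom, so it was not run. Resolution is limited by 1 array per condition and, for BCL2 and BCL2L11, by levels below the filter.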
